A study of Rousettus aegyptiacus with 32 samples.

Results

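Open chromatin of the cerebellum was compared with that of the cerebral cortex in the Egyptian fruit bat, Rousettus aegyptiacus, a mammal that modifies its calls by vocal learning. The comparison took 10 of the 32 libraries of a study of convergent evolution with vocal learning, chosen by their tissue labels. They were 2 libraries of Cerebellum and 8 of cortex, all ATAC-seq, an assay in which a transposase cuts and tags accessible DNA. The cortical libraries came from 4 areas: 2A (auditory cortex), ofM1 and wM1 (orofacial and wing motor cortex) and PreM (premotor cortex). Every tissue was taken once from each of 2 adult males, bat 1 and bat 3, with no treatment or genotype given in the labels. Nuclei of whole tissue pieces were used and cell types were not separated, so fewer cells of a type and less openness per cell cannot be told apart. The 4 cortical libraries of an animal share that animal, so p-values measure the spread between libraries of 2 bats.

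The cerebellum is filled mainly by granule neurons, small excitatory cells whose parallel fibres contact the inhibitory Purkinje neurons, which send the only output of the cerebellar cortex. Its neurons arise from the hindbrain under regulators such as the ZIC and EN transcription factors. The excitatory and inhibitory neurons of the cerebral cortex arise from the forebrain under regulators such as EMX2 and the DLX factors. Distal open regions usually differ more between cell types than the open regions at gene starts, many of which are shared by most cells.

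The deposited peak lists gave intervals with a fold enrichment over the peak caller's background and a -log10 p. After rows with the same interval were collapsed, the cerebellar libraries held 189825 and 187104 intervals, and the cortical ones held 155151 to 196988. Merging the intervals of the 10 libraries gave 392999 regions. Every list had been capped at 300000 rows before collapsing, so a missing interval means none down to a -log10 p of 5.28 and 3.53 in the cerebellar libraries of bats 1 and 3, and of 3.30 to 8.64 in the cortical ones. Read depth behind an interval is unknown here. Folds set side by side below are the authors' own, with no scaling between libraries, unless a log2 difference is named, which comes from log2 folds centred at each library's median. Genes were placed on the scaffolds of the peak lists by matching gene ends to peaks, since the annotation names no scaffold. It also gives no strand, so a gene boundary is either end of a gene.

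Regions held by every library and regions held by 1 tissue alone were both common. Of the merged regions, 55312 had an interval in all 10 libraries. A further 45056 had one in both cerebellar libraries and in no cortical library. The converse, an interval in all 8 cortical libraries and in neither cerebellar one, held for 36948 regions. Regions of a single library were also frequent, with 74332 in 1 cerebellar library alone and 53853 in 1 cortical library alone. Fewer regions of both cerebellar libraries lay between none and all of the cortical ones: 2925 had an interval in both cerebellar libraries and in exactly 4 of the 8 cortical ones.

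**Figure D1:**
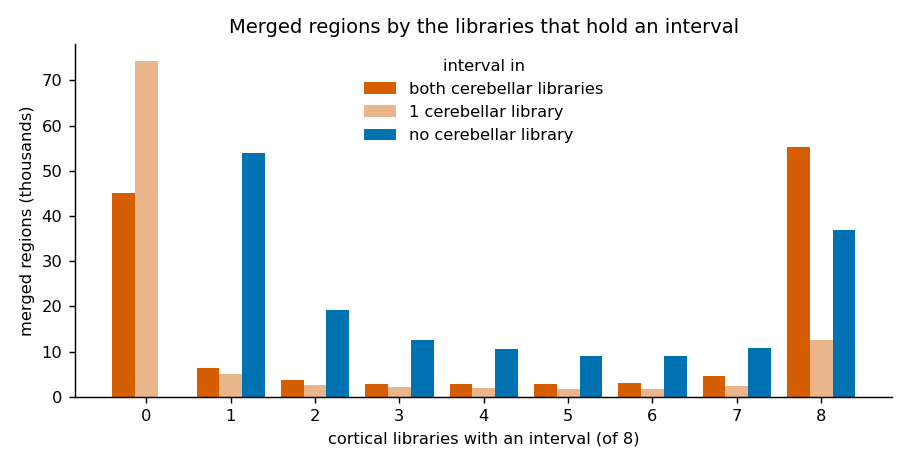
Number of merged regions (in units of 1000) by how many of the 8 cortical libraries hold an interval, for regions with an interval in both, 1 or none of the cerebellar libraries. The 45056 regions of both cerebellar libraries and no cortical one and the 55312 regions of all 10 libraries stand at the ends, and the 36948 regions of all 8 cortical libraries alone at the right.

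Strong regions were taken as those among a library's 50000 intervals of highest -log10 p. By that measure 5644 regions, 1.44% of all merged regions, were cerebellum-only, that is strong in both cerebellar libraries and without any interval in the 8 cortical ones. The converse class, cortex-only, held 2823 regions, 0.718% of the merged regions. The classes are not symmetric, because 8 libraries had to be strong for one and 2 for the other. With 1 cortical area at a time, 2 libraries against 2, the cerebellum-only count was 6921 (2A), 7130 (PreM), 7867 (ofM1) and 7321 (wM1), and the cortex-only count was 5211 (2A), 5477 (PreM), 6493 (ofM1) and 5569 (wM1). Cerebellum-only regions thus outnumbered cortex-only ones against each area. Without the cerebellar library of bat 3 the cortex-only count was 4668, and it stayed within 1.5 times of the full count without each other library. Regions strong in all 10 libraries numbered 20482, or 5.21%.

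In both tissues, regions without an interval in the other tissue were rarest among the strongest. Of the 842 regions ranked within the top 1000 in both cerebellar libraries, 10 had no cortical interval (1.19%). That share was 6.35% for a weaker cerebellar rank of 1001 to 10000, 10.9% to rank 25000 and 17.7% to rank 50000. For cortex, none of the 373 regions within the top 1000 of all 8 libraries lacked a cerebellar interval, and the share was 0.0183% to rank 10000, 2.58% to rank 25000 and 16.0% to rank 50000. In their own libraries the cerebellum-only regions had a median fold of 7.99 in bat 1 and 6.86 in bat 3, and a median width of 796 and 734 bases. The cortex-only regions had median folds of 6.98 to 10.7 and median widths of 767 to 1021 bases across the 8 cortical libraries.

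Cerebellum-only regions lay farther from gene boundaries than cortex-only regions. Within 1 kb of a boundary were 1.79% of cerebellum-only regions and 4.85% of cortex-only regions, against 45.7% of the regions strong in all 10 libraries and 6.30% of all merged regions. The median distance to the nearest boundary was 72.5 kb for cerebellum-only and 32.4 kb for cortex-only regions, against 43.0 kb for all merged regions. Inside a gene body lay 43.1% of the cerebellum-only and 50.7% of the cortex-only regions, against 51.7% of all merged regions. These shares describe the classes and were not tested.

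The classes also differed in other tissues of the same bats, whose libraries were not used to form them. Striatum is forebrain like the cortex, so its shares are not independent of a choice made by presence in cortex. All 4 striatal libraries (caudate and putamen, forebrain nuclei beneath the cortex) held an interval at 6.47% of cerebellum-only regions and at 61.4% of cortex-only regions. At least 1 striatal library held one at 19.3% of cerebellum-only and 74.8% of cortex-only regions. In both libraries of testis, muscle and liver an interval was present at 11.2%, 11.6% and 4.04% of cerebellum-only regions, and at 17.8%, 14.1% and 6.80% of cortex-only regions. The classes therefore stood much further apart in striatum than in these non-brain tissues. For all merged regions the share in all 4 striatal libraries was 27.3%.

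The strongest cerebellum-only regions, the 10 with the highest weaker -log10 p, lay mostly in gene deserts. For 7 of them no gene boundary was within 100 kb. The first, NW_023416308.1:103309378-103310297, had folds of 26.4 and 24.0 in the cerebellar libraries of bats 1 and 3, ranked 197 or better in both, and lay 532 kb from the nearest boundary. The second, NW_023416286.1:81331144-81332418, had cerebellar folds of 25.1 and 24.4 and lay 953 kb from a boundary. A region 49.6 kb from CNTLN had cerebellar folds of 15.7 and 19.0, and one 85.9 kb from ANKRD50 had 27.6 and 24.9. None of the 10 had an interval in any striatal library, but most had one in at least 1 liver, muscle or testis library. Of those non-brain libraries, 2 held the first region, 1 the second, 2 the ANKRD50 region and 0 the CNTLN region. All 10 stayed cerebellum-only at the other settings tried for strength and absence, and with each library left out. Their selection fixed this outcome, since all ranked 2533 or better in both cerebellar libraries and had no cortical interval.

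The strongest cortex-only regions lay nearer to genes, all 10 within 100 kb of a boundary. The top one, NW_023416310.1:98820165-98820436, lay within KLHL3 and MYOT and had cortical folds from 17.5 to 33.8 (median 25.5). The next, 10.8 kb from PLPP2 at NW_023416291.1:54916463-54916797, had cortical folds from 15.3 to 28.4 (median 22.7). Both are under 400 bases wide and were present in all 4 striatal libraries and in all 6 libraries of liver, muscle and testis, so they were missing in cerebellum rather than held by cortex alone. Others lay inside ZNF516, a zinc-finger gene, at NW_023416287.1:92792582-92793912 (9.75 to 14.0, median 11.8), in CFLAR, an inhibitor of caspase activation (12 to 17.8, median 15.1), and in GALNT16, 0.538 kb from its boundary (9.02 to 14.8, median 11.7). Of the 10, 9 were in all 4 striatal libraries, and the CFLAR region was in 3.

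Cerebellum-only regions came in clusters more often than cortex-only ones. Another region of the same class lay within 50 kb of 47.2% of the cerebellum-only regions and of 22.9% of the cortex-only regions. Since the cerebellum-only class has more members, a higher share follows in part from its size. Runs of 4 or more with gaps up to 50 kb numbered 138 for cerebellum-only and 7 for cortex-only regions. The longest run of cerebellum-only regions had 13 members over 300 kb, at NW_023416307.1:97213470-97513862, with 65 merged regions and no cortex-only region in its span. The longest run of cortex-only regions had 5 members over 116 kb near SPAAR and TMEM8B.

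That longest run, the next longest and a run of 8 regions at ZIC4 all lie around ZIC1 and ZIC4, paired genes for zinc-finger transcription factors of the granule neuron lineage. The only gene within 100 kb that was nearest to regions of the longest run was LOC107513406, 13.5 kb away at its closest. The next longest, of 11 regions, had no gene boundary within 100 kb. Within 700 kb on each side of the region at the ZIC1 boundary there were 39 cerebellum-only regions and no cortex-only region among 330 merged regions, so 11.8% were cerebellum-only. Over 1364 adjoining windows of the same length with at least 20 merged regions, the median was 3 cerebellum-only regions and 2 cortex-only regions. The highest window, with 38, was the one that covers ZIC1 and ZIC4, and the next, with 23, lies at CDH18, a neuronal cadherin. Of those 38 regions, 5 were nearest to ZIC4 and 5 to LOC107513406, and 28 had no gene within 100 kb. ZIC1 was the nearest gene to 0 cerebellum-only regions, so most of the cluster cannot be assigned to the ZIC genes by distance. The most cortex-only regions in a window were 12, in one with BTBD11 and RFX4 and in one with CUX1. The locus was singled out after its values were seen. The count there was 50 with the libraries of bat 1 alone and 53 with those of bat 3 alone. Fewer libraries set fewer requirements, so these counts could not fall below 39. Over all merged regions the cerebellum-only count rose likewise, from 5644 to 8115 in bat 1 and 8511 in bat 3. In all, 153 of the 330 regions had an interval in both cerebellar and no cortical library, and 1 had the reverse pattern in all 8 cortical libraries. The 17 regions of the locus with an interval in all 10 libraries had a median log2 difference of 0.08, with 5 higher and 6 lower in cerebellum, so shared regions there were not raised as a block. One of them, 77.6 kb from ZIC4 at NW_023416307.1:97035063-97037722, had folds of 4.67 and 5.54 in cerebellum and 11.5 to 22.0 in cortex (median 13.4).

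**Figure D2:**
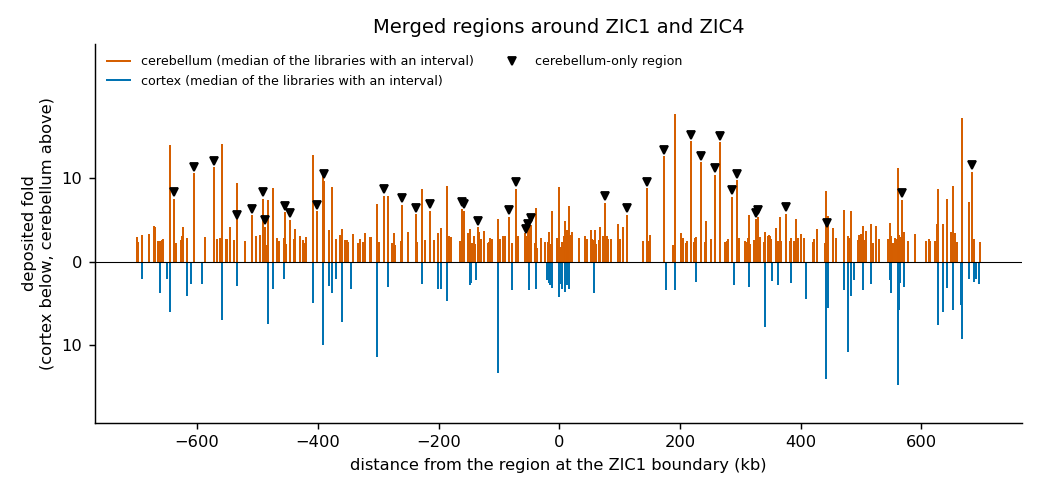
Deposited fold of each merged region within 700 kb of the region at the ZIC1 boundary, for cerebellum (upward) and cortex (downward), as the median of the libraries with an interval, against distance in kb; triangles mark the 39 cerebellum-only regions. Cerebellar intervals line the whole window, while cortical ones are fewer and no region is cortex-only.

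Some gene bodies held many cerebellum-only regions. The body of ERBB4, a neuregulin receptor, held 13 cerebellum-only and 0 cortex-only regions among 305 merged regions, or 4.26%, against 1.2% cerebellum-only over all gene bodies. CDH18 held 11 and 0 among 116, or 9.48%. ROBO2, an axon guidance receptor, held 13 and 0 among 453. DMD held 13 and 0 among 323, and MACROD2 held 13 and 0 among 349. Gene bodies with 5 or more cerebellum-only regions and no cortex-only region numbered 52, against 1 with the opposite pattern, ANKS1B. Some genes held both kinds. CNTNAP2, a neurexin family member, held 9 cerebellum-only and 6 cortex-only regions among 294. TENM2, a teneurin adhesion protein, held 9 and 8 among 389. The cortex-only share over all gene bodies was 0.704%. These genes are named by their counts, which are not adjusted for the number of merged regions in a gene, and no shared function was tested. By nearest boundary within 100 kb, 2096 genes (11.0%) had a cerebellum-only region, 1832 (9.62%) a cortex-only region and 438 both.

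Marker genes of cerebellar granule neurons had cerebellum-only regions nearby and no cortex-only ones. Of the 18 genes of that list, 8 were the nearest gene to a total of 19 cerebellum-only regions and none to a cortex-only region. That is 3.37% of the 564 merged regions nearest to the list's genes, against 1.22% cerebellum-only and 0.807% cortex-only over all genes placed. ETV1, an ETS factor of maturing granule neurons, and ZIC4 had 5 regions each. UNC5C, a netrin receptor, had 3, BARHL2, a homeobox factor, had 2, and GRM4, NEUROD1, PAX6 and GABRA6 had 1 each. The BARHL2 region at NW_023416284.1:63401221-63402773, 32.8 kb from the gene, had cerebellar folds of 14.9 and 11.1. Inside GABRA6, the granule neuron subunit of the GABA-A receptor, the region at NW_023416310.1:82157179-82157737 had cerebellar folds of 10 and 7.81, and all 4 striatal libraries had an interval there. The list's counts were 4 and 0 with the 25000 strongest intervals taken as strong, and 72 and 11 with the 100000 strongest. At the 25000 setting the cortical excitatory and cortical inhibitory neuron lists had 5 and 0 each, so the granule count was not the highest. At the 100000 setting the next highest cerebellum-only count was 42, for Purkinje and other cerebellar neurons.

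Genes of Purkinje and other cerebellar neurons had 16 cerebellum-only and 6 cortex-only regions, 2.36% and 0.884% of their merged regions. EOMES, a factor of unipolar brush cells, had 3 cerebellum-only and 2 cortex-only regions. The strongest of its cerebellum-only regions, 48.3 kb away at NW_023416307.1:141269483-141270941, had folds of 14.4 and 10.2, and its cortex-only regions had cortical folds of 6.50 to 11.6 and 7.13 to 10.7. KITLG had 2 cerebellum-only regions, and RORA, SLC6A5 (the neuronal glycine transporter) and CA8 had 1 each.

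The patterning and cortical lists were closer to the background of all genes. Hindbrain patterning factors had 4 cerebellum-only and 3 cortex-only regions, of which the cerebellum-only ones were at EN1 (1) and MEIS1 (3). Forebrain patterning factors had 3 and 4. OTX2, a head patterning homeobox gene that granule neuron precursors also use, had 2 cerebellum-only regions, with folds of 16.1 and 14.2 at the one 58.9 kb away. EMX2, SIX3 and NR2F1 had 1 cortex-only region each. Cortical excitatory neuron genes had 8 and 8. There, CUX1, an upper-layer factor, had 4 cortex-only regions, while NRN1 had 2 cerebellum-only regions. Cortical inhibitory neuron genes had 7 and 3, of which ERBB4 supplied 4 cerebellum-only ones and GAD1, CCK and SOX6 the cortex-only ones. A region 6.44 kb from PROX1, at NW_023416292.1:9999679-10000495, had cerebellar folds of 23.1 and 19.5 and no cortical interval.

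Against 1.22% cerebellum-only and 0.807% cortex-only regions over all genes placed, pan-neuronal genes had 10 cerebellum-only (1.74%) and 3 cortex-only regions (0.521%). Genes of astrocytes and Bergmann glia had 7 (1.88%) and 3 (0.804%). The oligodendrocyte lineage had 2 and 0, and microglia 1 and 0. Endothelial and mural genes had 1 (0.412%) and 4 (1.65%), with a cortex-only region at each of ABCB1, CDH5, VWF and PECAM1. The VWF region, inside the gene of the vessel wall protein von Willebrand factor, had cortical folds of 8.38 to 18.6. Activity-regulated genes had 4 (1.75%) and 1 (0.439%), all 4 at BDNF, a neurotrophin, and the 1 at EGR1. Housekeeping genes had none of either kind among 41 regions. No list was tested, and these counts are too small to set one list apart from another.

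**Figure D3:**
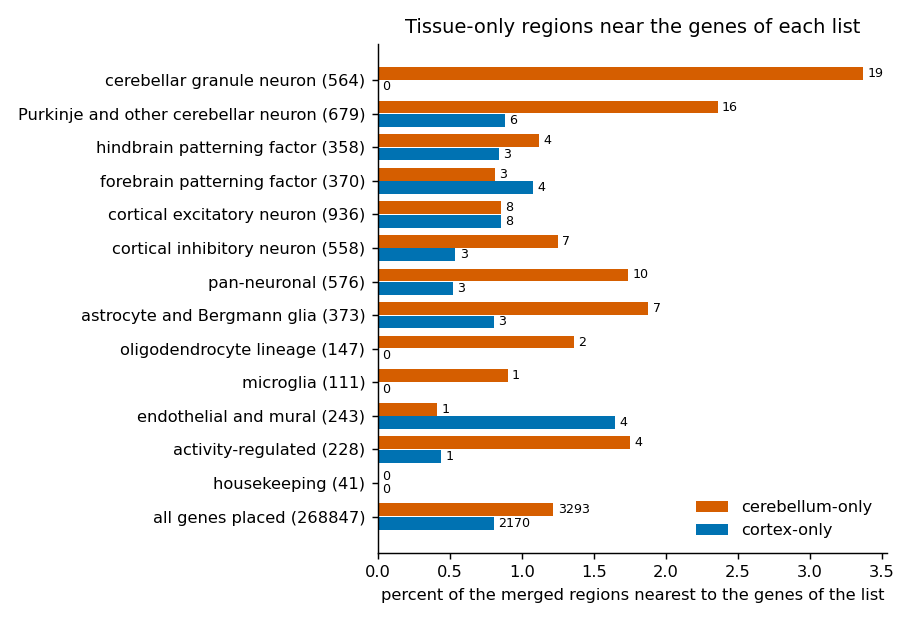
Percent of the merged regions nearest to the genes of each list (number of such regions in brackets) that were cerebellum-only or cortex-only, with the number of regions at each bar. The granule neuron list has the highest cerebellum-only share, 3.37%, and no cortex-only region, and the endothelial and mural list has the highest cortex-only share, 1.65%.

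At the genes' own boundaries most strong regions were shared. Over all genes, 14523 regions within 1 kb of a boundary were strong in at least 1 library, and 86.0% of these had an interval in all 10. An interval in both cerebellar and at most 1 cortical library was found at 180 of them (1.24%), and an interval in all 8 cortical and no cerebellar library at 990 (6.82%). Among 191 such regions of the list genes, 6 (3.14%) had the first pattern and 12 (6.28%) the second, so the second was no more frequent at list genes than at all genes. These 18 were chosen after their values were seen.

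The first pattern was found at ZIC1, ZIC4, GABRA6, FAT2, EN1 and GDF10. The ZIC1 boundary region, NW_023416307.1:97138022-97138615, had folds of 8.72 and 9.05 in cerebellum, and of the cortical libraries PreM of bat 3 alone had an interval, with a fold of 4.19. Its neighbours differed in pattern. Regions at 1.4 and 4.0 kb from it were in 1 cerebellar library (folds 1.69 and 2.38) and in 4 and 5 cortical ones (median folds 2.67 and 3.23). Those at -1.6, -3.3 and -4.2 kb, on the other side, were in both cerebellar libraries and no cortical one. The GABRA6 region, NW_023416310.1:82166811-82167909, had folds of 8.40 and 7.93 in cerebellum, against 2.80 in wM1 of bat 3 and no interval in the other 7 cortical libraries. FAT2, a cadherin of parallel fibres, had 6.27 and 4.67 in cerebellum and 2.51 in ofM1 of bat 1. At ZIC4 (2.60 and 3.02), EN1, a mid-hindbrain homeobox gene (4.52 and 4.10), and GDF10, a gene of Bergmann glia (2.68 and 4.32), no cortical library had an interval. EN1 and GDF10 each had a further boundary region with an interval in all 10 libraries, so at these genes the pattern belongs to 1 region and not to the whole gene.

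The 12 regions of the second pattern are given as single values, since their share is near that of all genes. At BCL11B, a factor of deep-layer projection neurons, the region NW_023416306.1:170183213-170183780 had folds of 3.17 to 4.68 (median 3.75) in the 8 cortical libraries and no cerebellar interval. A region at a boundary of SLC17A7, the vesicular glutamate transporter 1, lies in the body of GFY and had cortical folds of 3.51 to 4.58. Another boundary region of SLC17A7 was higher in cerebellum by fold (8.83 and 7.30, against 3.08 to 4.87 in cortex), with no call by rank. LHX6, a factor of cortical interneurons, had cortical folds of 3.17 to 5.17, and CCK, a neuropeptide gene, had 3.09 to 4.76. DLX5 had 2.93 to 4.79, and CHRM1, a muscarinic receptor, 3.13 to 4.33. A region of 1396 bases within 1 kb of SYN1, a synaptic vesicle gene, lies in the body of ARAF and had cortical folds of 6.83 to 13.5. A second boundary region of SYN1, inside the gene, had folds of 15.6 and 12.3 in cerebellum and 6.11 to 11.6 in cortex, higher in cerebellum by fold and with no call by rank. FOS had a region of 567 bases with cortical folds of 2.54 to 4.51 and no cerebellar interval, next to a wider boundary region present in all 10 libraries.

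Of the same 12, 4 were at oligodendrocyte and microglial genes. MOG, a myelin protein gene, had cortical folds of 3.13 to 9.87 (median 6.06), and NKX6-2, a factor of oligodendrocytes, had 2.29 to 7.06. Microglial CX3CR1, the fractalkine receptor, had 4.26 to 8.34 and PTPRC, the leukocyte marker CD45, had 3.74 to 13.6 (median 11.4). At all 4 no interval was called in either cerebellar library. Of the 4 microglial genes with a strong boundary region, the remaining 2, IRF8 and CSF1R, were lower in cerebellum: IRF8 had 3.75 and 6.99, against 11.9 to 20.5 in cortex (log2 difference -1.45, SE 0.19, limma adjusted p = 9.09e-06), and CSF1R had 4.54 and 3.42, against 4.81 to 7.72 (-0.54, adjusted p = 0.0102). Other regions of the oligodendrocyte list went the other way, with 2 of its 5 tested boundary regions higher and 0 lower by fold. Over all 9 tested regions nearest to microglial genes, 3 were higher and 4 lower by fold, and 0 and 4 without centring. The higher ones were at SPI1, PTPRC and IRF8, with 1 each. Of the 5 tested boundary regions of the endothelial and mural list, 2 were higher and 1 lower. The part of glial, immune and vascular cells in other differences between the tissues was not tested.

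**Figure D4:**
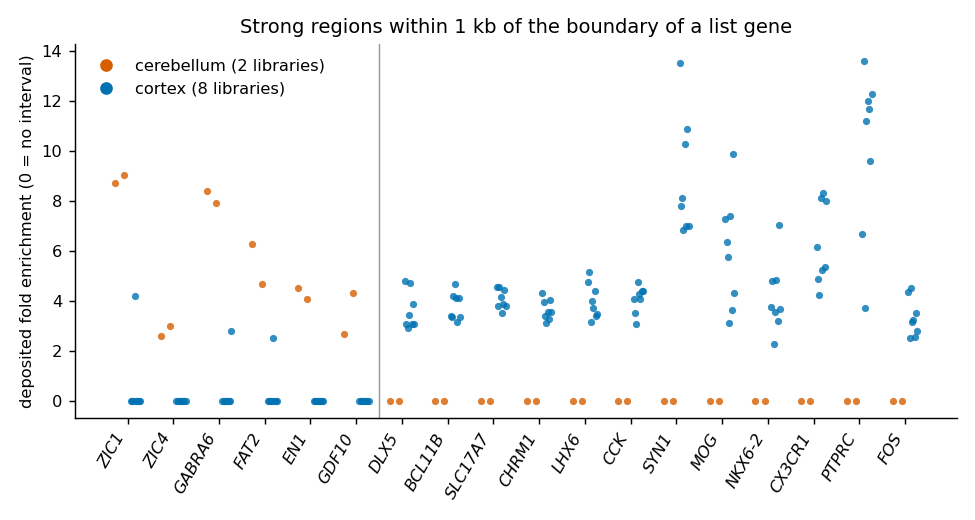
Deposited fold in each library at the 18 strong regions within 1 kb of a list gene's boundary that were held by 1 tissue, with cerebellum (2 libraries) left of cortex (8 libraries) at each gene and 0 for no interval. ZIC1, ZIC4, GABRA6, FAT2, EN1 and GDF10 have points in cerebellum and at most 1 cortical point above 0, and the 12 genes to the right have cortical points alone.

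Where all 10 libraries had an interval, folds still differed widely between the tissues. Of 55312 such regions, 18931 (34.2%) were higher and 13561 (24.5%) lower in cerebellum by limma with Benjamini-Hochberg adjustment at 0.05. Past a log2 difference of 1 the directions were nearly even, with 4753 higher and 4914 lower. The share of calls that were higher, 58.3%, rests on the centring: without it 11553 were higher and 14973 lower, and with quantile normalised folds 13074 and 12578. The median difference over all regions was 0.12 with centring and -0.02 without it. Without the cerebellar library of bat 1, 13527 were higher and 8902 lower. Of all calls, 99.8% had the same sign in both bats, against 83.2% of all regions tested. The calls were made from the libraries of both bats together, which largely fixes like signs in advance.

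The 2 animals gave like differences. Across the 55312 regions, which are not independent of each other, cerebellum minus the mean of the cortical areas in bat 1 and in bat 3 had a Pearson r of 0.835, and 83.2% of regions had the same sign. Of the 1000 regions highest in cerebellum in bat 1, 99.7% were also higher in bat 3, with a median log2 difference of 1.96 in bat 1 and 1.71 in bat 3. The 1000 lowest in bat 1 were all lower in bat 3, with medians of -2.03 and -1.31. Presence carried over less evenly. Of 8115 regions that were cerebellum-only within bat 1, 88.7% had an interval in the cerebellum and in no cortical library of bat 3. Of 7218 that were cortex-only within bat 1, 65.5% kept that pattern in bat 3, whose cerebellar library had an interval at 34.0% of them. Chosen in bat 3 and read in bat 1, the shares were 82.1% for cerebellum-only and 82.2% for cortex-only.

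**Figure D5:**
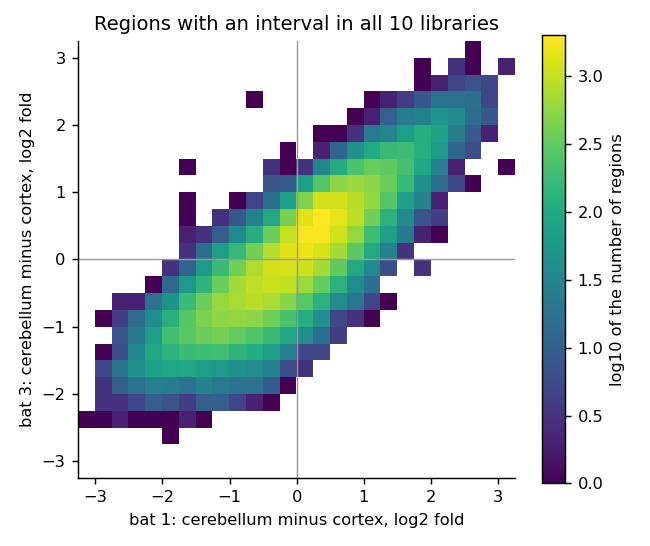
Cerebellum minus cortex in log2 fold at regions with an interval in all 10 libraries, bat 1 on the horizontal and bat 3 on the vertical axis, as the log10 of the number of regions in squares of 0.25. The cloud follows the diagonal, with r of 0.835 across regions, and 83.2% of regions lie in the quadrants of like sign.

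Of the 8 regions most increased in cerebellum, 7 lay inside gene bodies. The first was a region in the body of ERBB4, NW_023416295.1:19413268-19413770, with folds of 25.7 and 25.8 in cerebellum and 2.54 to 4.57 in cortex (median 3.84). Its log2 difference was 3.01 (SE 0.19, limma adjusted p = 2.48e-08), or 3.03 in bat 1 and 2.99 in bat 3. A region in CELF2, an RNA-binding splicing factor, had 20.6 and 16.2 in cerebellum and 2.26 to 3.63 in cortex (log2 difference 2.93). In PRICKLE2, a planar polarity gene, the folds were 21.6 and 18.7 in cerebellum and 2.37 to 3.73 in cortex (2.86). Regions in WDFY3, SGK1 and PLPPR4 followed, with log2 differences of 2.76, 2.70 and 2.69. All 8 were also higher by rank. These regions were chosen for the size of their difference, so folds that do not overlap between the tissues follow from that choice.

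The largest decreases were of like size. In PARD3, a cell polarity gene, the region NW_023416285.1:77078915-77079915 had folds of 1.88 and 2.15 in cerebellum, against 11.5 to 19.2 in cortex (median 13.8), with a log2 difference of -2.68 (SE 0.15, limma adjusted p = 1.45e-08). A region of 287 bases 16.3 kb from HACE1, an E3 ubiquitin ligase, had 4.68 and 6.57 in cerebellum and 22.9 to 46.9 in cortex (-2.48). One 17.0 kb from SYCE1 had 2.96 and 4.79 in cerebellum and 20.8 to 24.4 in cortex (-2.46). The last 2 regions had intervals in every striatal, liver, muscle and testis library as well. All 8 decreases named were also lower by rank.

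TNIK, a kinase of synaptic and Wnt signalling, held a named region of each direction. At NW_023416307.1:31186668-31187903 the folds were 21.1 and 18.4 in cerebellum and 2.71 to 4.05 in cortex, a log2 difference of 2.77. At NW_023416307.1:31183098-31184087, a few kilobases away, they were 1.82 and 2.30 in cerebellum and 10.3 to 17.4 in cortex, a log2 difference of -2.53. Among the 9667 regions called past a log2 difference of 1, 219 neighbouring pairs lay within 5 kb of each other, and 113 of these pairs (51.6%) were of opposite direction. Opposite changes side by side were thus about as frequent as like ones. With 4753 regions higher and 4914 lower, unrelated neighbours would give a share near this, so the count shows no pattern of its own.

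Regions at gene boundaries and distal regions differed in a way that depends on the measure. Within 1 kb of a gene boundary 46.9% of 12874 regions were higher in fold and 11.7% lower, with a median log2 difference of 0.34. Over 10 kb away, 29.9% of 33043 regions were higher and 29.9% lower, with a median of -0.02. By rank of -log10 p the boundary regions went the other way, with 11.8% higher and 36.6% lower. Over 10 kb away, 29.0% were higher and 23.8% lower by rank. Over all regions tested by rank, 13024 (23.5%) were higher and 15215 (27.5%) lower in cerebellum. Without the cerebellar library of bat 1 these counts were 7776 and 10063, and without that of bat 3 they were 8112 and 10306. A direction for gene boundaries as a class can therefore not be given, and single genes below are named where fold and rank gave the same call, unless stated.

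At regions with an interval in all 10 libraries, uncentred peak widths were more often narrower than wider in cerebellum. Of the 55312 regions, 19928 (36.0%) were covered over fewer bases in cerebellum and 2648 (4.79%) over more, with a median log2 difference in width of -0.29. With widths centred at each library's median, 13322 were wider and 11107 narrower, so the excess of narrower regions lies in the overall width of the lists. Without the cerebellar library of bat 1, 1080 were wider, and without that of bat 3, 1396. Among the 50000 strongest intervals of each library the median width was 767 and 723 bases in cerebellum and 742 to 1066 bases in cortex, a difference that the exact permutation test did not separate from the spread between libraries (2-sided p = 0.133, n = 2 and 8, smallest possible p 0.0222). Within 1 kb of gene boundaries the groups did not overlap: the medians were 954 and 921 bases in cerebellum and 1105 to 1422 in cortex (exact permutation p = 0.0222, the smallest it can give). More than 10 kb from a boundary they were 759 and 706 in cerebellum and 669 to 993 in cortex (exact p = 0.289).

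The strongest cerebellar intervals included fewer at gene boundaries. Of the 25000 strongest, 32.0% and 32.2% lay within 1 kb of a boundary in cerebellum, and 34.4% to 41.2% in cortex (exact permutation p = 0.0222, n = 2 and 8). Of the 50000 strongest the shares were 22.7% and 22.6% in cerebellum and 22.5% to 25.3% in cortex (exact p = 0.0667). The 50000 strongest intervals covered 41.1 and 39.0 Mb in cerebellum and 40.5 to 56.5 Mb in cortex (exact p = 0.133), with 2.23 and 2.29 summits per interval in cerebellum and 2.20 to 2.82 in cortex (exact p = 0.356). The number of intervals did not separate the tissues either (exact p = 0.444).

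Among the shared regions near cerebellar marker genes both directions occurred. The granule neuron list had 62 tested regions, 21 higher and 12 lower in fold, with a median log2 difference of 0.19, against 35.9% higher, 22.1% lower and a median of 0.17 over all regions near a gene. A region 12.3 kb from BARHL2 had 11.2 and 8.26 in cerebellum and 2.77 to 4.58 in cortex (log2 difference 1.61, SE 0.19, limma adjusted p = 2.14e-06). In NFIX, a nuclear factor of granule neuron maturation, the folds were 7.65 and 7.76 in cerebellum and 2.46 to 4.05 in cortex (1.42). In UNC5C they were 2.36 and 2.69 in cerebellum and 5.69 to 9.75 in cortex (-1.45). At the boundaries of granule genes, PAX6 had 7.58 and 7.64 in cerebellum and 2.17 to 5.58 in cortex (1.24, limma adjusted p = 0.000446), NEUROD1 had 9.85 and 9.43 and 3.81 to 7.25 (1.01), and ZIC2 had 9.20 and 8.39 and 4.39 to 7.90 (0.83). These 3 regions were named for being called, so the lack of overlap between their cerebellar and cortical folds is no further evidence. A second PAX6 boundary region did not pass the test by fold (4.8 and 4.53 in cerebellum, 2.51 to 7.12 in cortex, limma adjusted p = 0.165).

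The list of Purkinje and other cerebellar neurons had 29 higher and 20 lower of 80 regions, with a median of 0.16 (20 and 21 without centring). A region in RORA, the nuclear receptor needed for Purkinje neuron development, had 11.5 and 9.50 in cerebellum and 2.85 to 5.02 in cortex (log2 difference 1.46, SE 0.17, limma adjusted p = 2.80e-06). Of the list's 12 tested boundary regions, 7 were higher and 2 lower by fold (median 0.48), and the 2 lower ones were at PPP1R17 and LHX5. PPP1R17, a phosphatase inhibitor of Purkinje neurons, had 2.60 and 3.42 in cerebellum and 7.42 to 12.8 in cortex (-1.47), and LHX5 had 3.53 and 4.79 in cerebellum and 5.52 to 14.9 in cortex (-1.25). Hindbrain patterning factors had 12 higher and 12 lower of 48, with a median of 0.12 (6 and 12 without centring), and their median was -0.02 both without centring and with quantile normalised folds.

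Shared regions near genes of neurons in general, and of the forebrain, were more often higher than lower in cerebellum, as were regions of all genes by fold (35.9% higher, 22.1% lower) but not by rank (21.7% higher, 28.4% lower). Pan-neuronal genes had 59 higher and 12 lower of 113 regions (median log2 difference 0.46), and by rank 40 higher and 10 lower. The largest change was 91.9 kb inside MAP2, the dendritic microtubule protein, where folds were 15.2 and 10.9 in cerebellum and 2.37 to 3.32 in cortex (log2 difference 2.36, SE 0.17, limma adjusted p = 3.50e-08). SYT1, the synaptic calcium sensor, had 9.18 and 6.93 in cerebellum and 2.40 to 3.06 in cortex at 0.444 kb from its boundary (1.73). A region 63.2 kb from NEFM went the other way, with 3.00 and 3.84 in cerebellum and 7.24 to 22.2 in cortex (-1.55). Forebrain patterning factors had 28 higher and 5 lower of 63 (median 0.31; 18 and 5 without centring), and 21 higher and 9 lower by rank. For NR2F1, a nuclear receptor of cortical patterning, a region 42.8 kb away had 9.43 and 8.25 in cerebellum and 2.23 to 5.01 in cortex (1.40).

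Cortical excitatory neuron genes had 69 higher and 29 lower of 147 regions (46.9% and 19.7%, median 0.25; 46 and 36 without centring), and 49 higher and 28 lower by rank. MEF2C, a neuronal MADS-box factor, had 11.8 and 9.32 in cerebellum and 1.90 to 3.31 in cortex at a region 5.55 kb away (log2 difference 2.16, SE 0.18, limma adjusted p = 1.49e-07). A region in FOXP1, a forkhead factor of many neuron types, had 14.4 and 10.5 in cerebellum and 3.05 to 5.35 in cortex (1.76). RORB, a layer 4 nuclear receptor, went the other way in a region of its body, with 2.46 and 2.50 in cerebellum and 7.13 to 12.3 in cortex (-1.69). Cortical inhibitory neuron genes had 24 higher and 18 lower of 70 (34.3% and 25.7%, median 0.10), close to the shares of all genes, and 19 and 20 without centring (median -0.04). There, the largest difference was a decrease 76.0 kb from ERBB4, with 2.82 and 2.59 in cerebellum and 7.91 to 21.1 in cortex (-2.05). A region in LHX6 had 13.0 and 12.2 in cerebellum and 3.59 to 4.78 in cortex (1.69). The boundary of ADARB2, a gene of interneurons from the caudal ganglionic eminence, had 2.67 and 4.66 in cerebellum and 8.44 to 15.1 in cortex (-1.50). A gene name near a region does not show that the gene is used in that tissue.

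Glial, vascular and activity-regulated genes completed the lists. Genes of astrocytes and Bergmann glia had 13 higher and 19 lower of 65 regions (median log2 difference -0.05). In SLC1A2, the glial glutamate transporter 1, a region had 13.7 and 12 in cerebellum and 2.29 to 3.62 in cortex (2.28), and one in NFIA had 2.53 and 3.15 in cerebellum and 6.92 to 18.2 in cortex (-1.72). Oligodendrocyte lineage genes had 13 higher and 7 lower of 33, with 7 and 7 by rank and 6 and 9 without centring, and microglial genes 3 higher and 4 lower of 9, with 0 and 4 without centring. Endothelial and mural genes had 10 higher and 11 lower of 39 (median 0.02, and -0.15 with quantile normalised folds). KDR, the VEGF receptor, had 3.44 and 3.45 in cerebellum and 12 to 20 in cortex at a region 19.5 kb away (-1.92). Activity-regulated genes had 29 higher and 1 lower of 47 by fold (median 0.51) but 10 higher and 6 lower by rank. ARC, a synaptic immediate early gene, was called in both, with 10.5 and 8.34 in cerebellum and 3.28 to 5.84 in cortex at its boundary (1.34), while FOS (0.88) and EGR1 (0.89) were higher by fold and were not called by rank. Housekeeping genes, which serve all cells, had 5 higher and 0 lower of 12 by fold, and 0 and 1 by rank.

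Over all 13 lists, 157 strong boundary regions were tested, of which 87 (55.4%) were higher and 15 (9.55%) lower in fold, against 46.9% and 11.7% of all regions within 1 kb of a boundary. By rank 27.4% were higher and 17.8% lower, against 11.8% and 36.6%. Of the fold calls, 49 were made in the same direction by rank, 38 higher and 11 lower, and 2 in the opposite direction. The 2 opposite calls were at CAMK2A and DUSP1.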

How the data were processed

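Open chromatin was profiled by ATAC-seq on nuclei from cryopreserved bulk tissue, per the labels' protocols. The authors deposited 1 peak list per library, each of 300000 rows, with a fold enrichment (a ratio to the caller's background) and a -log10 p per row. Per the submitters' processing notes, the tools included Bowtie2 and MACS2, and no role, setting or genome build was found for them. Read depth cannot be recovered from peak lists.

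Rows of the same interval were collapsed to their highest fold and -log10 p (Python 3.11.15, pandas 2.3.3, numpy 2.4.6), and overlapping intervals of the 10 libraries were merged. Regions with an interval in all 10 were tested with limma 3.58.1 (R 4.3.3, trended, 2-sided, Benjamini-Hochberg over all regions tested, threshold 0.05) on log2 fold centred at each library's median, on normal scores of the rank of -log10 p, and on log2 covered bases. Values per library were compared by exact permutation over 45 arrangements. The script was tested on simulated data. Same-numbered libraries come from the same bat, so the numbers pair the samples, and the animal as a block is an alternative.

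Named regions are the 10 with the highest weakest -log10 p in each class and the 8 with the largest log2 difference in each direction of like sign in both bats, with up to 4 genes per list by largest difference. The comparison and the gene lists were chosen with earlier results of these data known. Gene bodies, windows and regions at gene boundaries were picked out after their values were seen. The RefSeq gene table (assembly mRouAeg1.p) names no scaffold or strand. Its 20 runs of genes were placed, by inference, on the scaffold where most gene ends met a strong region (median 68.5% of genes, against at most 19.3% on the next best scaffold), which placed 19038 of 19070 protein-coding genes. Sequence and motif comparisons were not run, since no genome was used here. RNA libraries were not used. Some genes that the rule would name are not reported here.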

Additional observations from a re-analysis of the deposited data

Results flagged for a closer look

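Among 83 groups of 8 cortical values, 3 held a value far from the other 7, judged by its gap over the group's range (Dixon's criterion at 95%). Chance flags about 1 in 20 groups. At the region 77.6 kb from ZIC4, the 2A library of bat 1 had a fold of 22.0 (gap 0.590 of the range). At the region 63.2 kb from NEFM, a neurofilament gene, 2A of bat 1 had 22.2 (0.602). At the region 52.5 kb from OLIG1, a factor of the oligodendrocyte lineage, wM1 of bat 3 had 5.56 (0.529).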

How the results depend on the processing

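The presence classes moved most with the definition of strong. Cerebellum-only and cortex-only counts were 1963 and 230 with the 25000 strongest intervals, 16357 and 14638 with the 100000 strongest, 45056 and 36948 with every interval, and 14934 and 8435 when absence meant no strong interval. They were 8115 and 7218 in bat 1 alone and 8511 and 5518 in bat 3 alone. With 1 cortical area at a time, chosen after seeing the data, cortex-only counts were 5211 (2A), 5477 (PreM), 6493 (ofM1) and 5569 (wM1). Leaving out 1 library gave 5671 to 7306 cerebellum-only and 2866 to 4668 cortex-only regions, 13527 to 19622 higher and 8902 to 13741 lower in fold, 7776 to 13309 higher and 10063 to 15758 lower in rank, and 1080 to 3088 wider and 13797 to 21483 narrower. Without centring 11553 were higher in fold. With absent values set at the library's lowest fold, 82612 were higher and 61725 lower of 176506. With widths centred, also chosen after seeing the data, 13322 were wider and 11107 narrower. The share within 1 kb of a boundary had an exact permutation p of 0.0222 with the 25000 strongest, with every interval and within 500 bases.

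In the paired fit, with the animal as a replicate block, 20592 were higher and 14754 lower in fold, 14053 and 16398 in rank, and 2793 wider and 20609 narrower, and no call among 158 named regions changed. With the cortical areas averaged within each animal before the paired fit, 15709 were higher and 12216 lower in fold, and 13 of the 158 were no longer called. Over those regions and up to 17 alternatives, 2490 of 2686 values kept direction and call, 188 kept direction alone and 8 reversed, all with -log10 p in place of fold: FOSB (-0.18), JUNB (-0.15), EGR3 (-0.46), PTPRC (-0.15), GAPDH (-0.04), DUSP1 (-0.66), CAMK2A (-0.65) and CUX1 (-0.43). The cause was not tested. Motif and GC alternatives were not run.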
